A study of Mus musculus with 2 samples.

Results

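The 55 genes described here encode proteins that drive, restrain or carry out cell division. They were chosen by name as cyclins and their kinases, kinase inhibitors, phosphatases, replication factors, mitosis genes and the regulators above them. Each was read through its probe sets, the groups of short probes that an Affymetrix array holds for a transcript, and only probe sets that the platform annotation gives to a single gene were taken. Such probe sets were found for 53 of the 55 genes, 125 probe sets in all, among 18193 named genes. Ccnb1 and Trp53 had none in that annotation and were not analysed here.

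The study looked for target genes of the zinc finger transcription factor ZBTB20 in the insulin-producing beta cells of the mouse pancreas. The tested sample was RNA of islets from mice labelled b cell-specific ZBTB20 knockout, on 1 array. It was compared with RNA of islets from littermate controls labelled wildtype, also on 1 array. Per the labels, the mice had a mixed background and an age of 2 to 3 months, and the islets, released by collagenase and hand-picked, spent a night in culture before freezing. The driver of the recombinase, the deleted part of Zbtb20, the number of mice behind each array and their sex are not given in the sources used here.

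In a dividing cell, D-type cyclins with CDK4 or CDK6, and then cyclin E with CDK2, phosphorylate the retinoblastoma protein and release E2F factors. These switch on the genes of DNA replication. Cyclin A and cyclin B with CDK1 then bring the cell into mitosis, and 2 families of inhibitors, INK4 and CIP/KIP, hold the kinases back. Adult mouse beta cells divide rarely. Cyclin D2 and CDK4 are needed for their growth after birth, menin and the polycomb proteins control their INK4 genes, and p16, encoded by Cdkn2a, restrains their division with age.

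The deposited values are MAS5 signals, which are linear intensities, 1 per probe set. The 50th percentile of each array, 21.7 on the knockout-labelled and 21.6 on the control array, served as a floor, since detection calls were not used here. Each gene takes the values of its brightest probe set, and is called measured where these exceed the floor on 1 or both arrays. Where only 1 of them does, the ratio gives a lower limit of the difference and carries the words "at least". All ratios are knockout-labelled over control. With 1 array per group there is no replicate error, and no difference was tested. The only spreads at hand are those between probe sets of a gene and those between genes of similar signal. The first had a median SD of 0.21 on the log2 scale over 4719 genes. The second includes whatever differed between the islet preparations. Neither can separate variation between mice or preparations from a difference by genotype.

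Zbtb20 itself did not check the labels. Of its 9 probe sets, 5 were lower and 4 higher on the knockout-labelled array, with a median log2 ratio of -0.062. Its brightest read 205 on the knockout-labelled and 238 on the control array. The array is therefore called knockout-labelled throughout. Both preparations carried very high signals of islet hormone genes, for example 7786 in knockout-labelled and 9194 in control islets for Ins2, the insulin gene. They also differed in other cells. The summed signal of 8 acinar (enzyme-secreting) cell genes was 16985 in knockout-labelled and 31569 in control islets, with 6 of 7 measured genes lower. That of 14 macrophage and dendritic cell genes was 1814 in knockout-labelled and 1114 in control islets, with 11 of 12 measured genes higher. Fibroblast and stellate cell genes were lower for 5 of 6 measured genes, with sums over 9 genes of 233.3 in knockout-labelled and 313.3 in control islets, and all 3 measured duct genes were lower, with sums over 6 genes of 1018 in knockout-labelled and 1290 in control islets. Endothelial genes were lower for 6 of 8, with sums over 10 genes of 951.8 in knockout-labelled and 1018 in control islets. Of 7 lymphocyte genes, 4 were under the floor on both arrays (Cd3e, Cd3g, Cd4 and Ms4a1). The part of these cells in the values below was not tested. In such bulk RNA, fewer cells of a type and less RNA per cell cannot be told apart.

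Of the 53 genes, 30 were above the floor on both arrays, 7 on a single array and 16 on neither. That is 30.2% under the floor on both, against 35.1% of all named genes. Among the 37 measured genes, 16 had a ratio above 1 and 21 a ratio below 1, and the median log2 ratio was -0.096, against 0.00 over all 11802 measured genes. At a 2-fold limit 1 member, Cdc14a, was higher, or 2.70% of the 37, where 1.82% of all measured genes were. None was 2-fold lower, where 1.44% of all genes were. At a 1.5-fold limit Cdc14a again was the only higher member, where 6.91% of all genes were higher. On the lower side there were 5 members, Mcm6, Cdkn2c, Ccnd1, Cdk2 and Rbl2, or 13.5% of the 37, where 6.21% of all genes were lower. Cdkn2c stayed past 1.5-fold in each of 7 other ways of processing. The others did not in all of them. Averaging probe sets gave log2 ratios of -0.48 for Ccnd1 and -0.46 for Mcm6, a pseudocount of 16 in place of a floor gave -0.48 for Cdk2 and -0.57 for Rbl2, and a floor at the 70th percentile gave 0.013 for Mcm6 and -0.53 for Rbl2 and left Cdk2 under it.

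**Figure D1:**
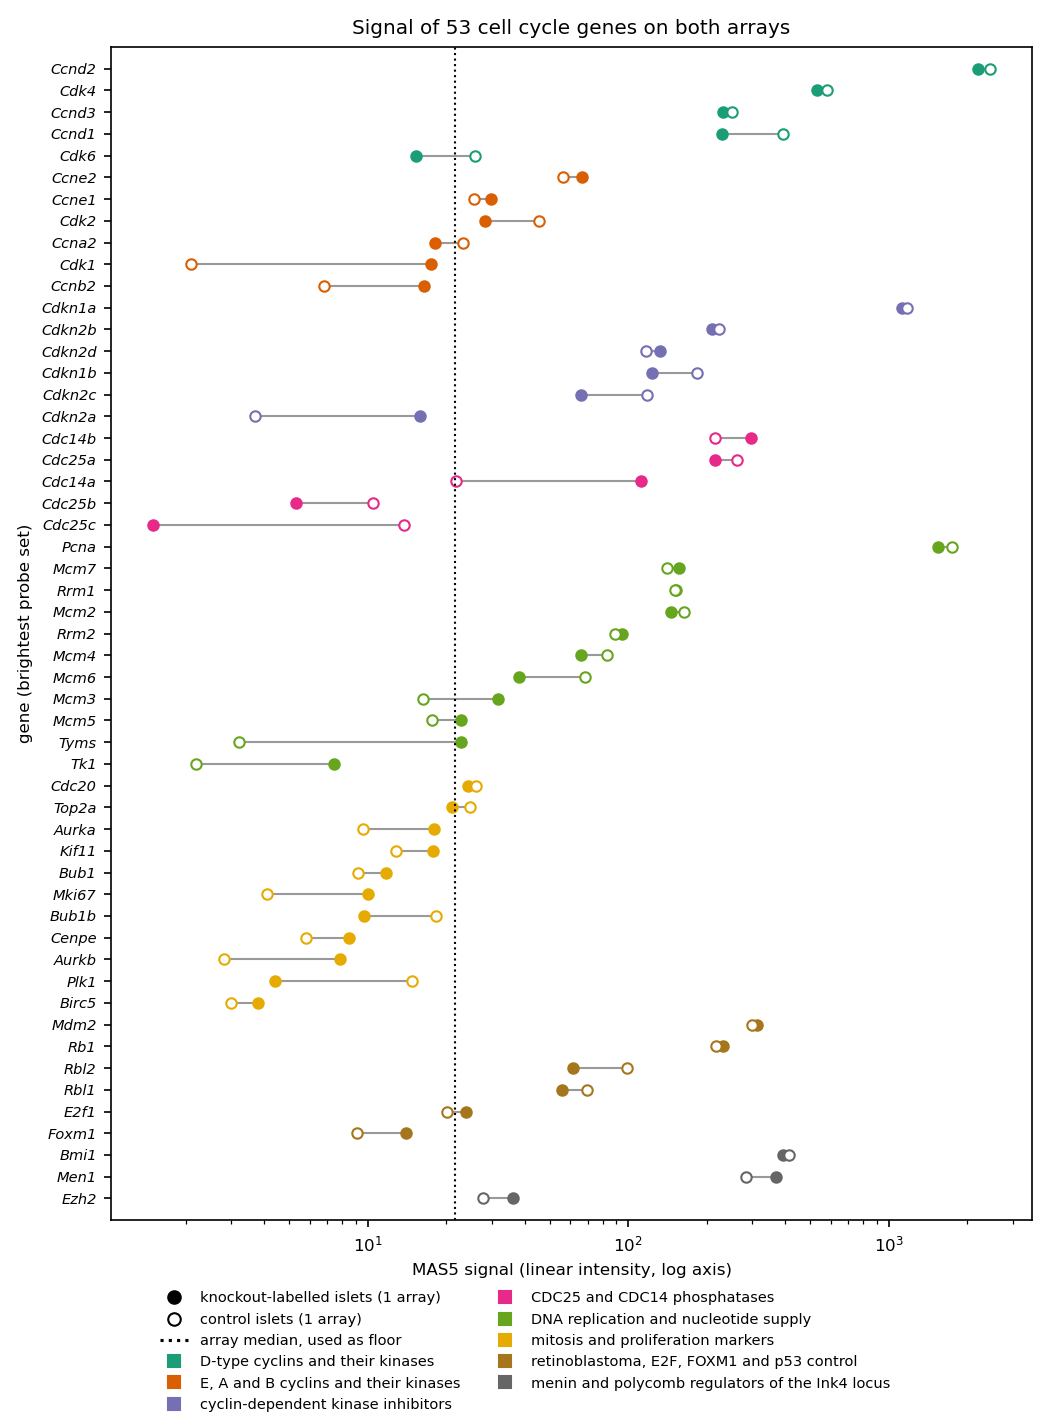
MAS5 signal (x axis, log scale) of the brightest probe set of each of the 53 genes (rows), coloured by role. Filled points are the knockout-labelled array, open points the control array, 1 array each, and the dotted line is the floor of 21.7. The replication genes span the floor, while 9 of the 11 mitosis and proliferation genes lie left of it on both arrays.

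The D-type cyclins and their kinases, which start the cycle, were all measured, and all 5 had a ratio below 1. Their median log2 ratio was -0.16 (range -0.77 to -0.12). Of all measured genes, 49.9% had a ratio above 1. The 5 islet hormone genes, 4 of them with a ratio below 1, had a median log2 ratio of -0.12. Ccnd1, cyclin D1, had the lowest ratio of the D-type group, at 230.0 in knockout-labelled and 391.7 in control islets, 1.70-fold lower. Its 2 other probe sets were lower by less, at 216.9 and 245.1 in knockout-labelled islets, against 284.0 and 298.7 in control islets. All 3 thus had the same direction. The log2 ratio of the brightest, -0.77, lay outside the central 95% of genes of its signal band (-0.58 to 0.64). It also lay outside that of the next lower band (-0.71 to 0.77). The log2 ratios of the other 2 probe sets, -0.39 and -0.29, lay inside both bands, as did the average over all 3, -0.48. Some genes lie outside such a band by construction.

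Ccnd2, the D-type cyclin that mouse beta cells depend on most, was read by 7 probe sets, all above the floor. The brightest gave 2202 in knockout-labelled and 2452 in control islets, 1.11-fold lower. Over the 7 probe sets the log2 ratios ran from -0.38 to 0.32, with 6 lower and 1 higher and an SD of 0.24, so the difference of the brightest (-0.16) was smaller than the spread among probe sets of the gene. Its kinase partner Cdk4 had 529 in knockout-labelled and 580 in control islets in its brightest probe set, and its 2 others had log2 ratios of 0.013 and -0.014. The 1.10-fold lower value of the brightest probe set of Cdk4 was thus not shared by the others. Ccnd3, a D-type cyclin used by many other tissues, had 231 in knockout-labelled and 250 in control islets. Cdk6, the other kinase of the D-type cyclins, had 15.3 in knockout-labelled and 25.8 in control islets, at least 1.19-fold lower and next to the floor.

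The cyclins and kinases that act later were dim, with no signal over 66.7 on either array. Cdk2, the kinase of cyclin E and cyclin A, had 28.1 in knockout-labelled and 45.5 in control islets, 1.62-fold lower. Genes of that signal spread from -0.99 to 1.07 on the log2 scale, and the log2 ratio of Cdk2, -0.70, lay inside. Ccne1 and Ccne2, both cyclin E genes, had ratios above 1, at 29.8 and 66.7 in knockout-labelled islets, against 25.5 and 56.3 in control islets. The other probe set of Ccne1 went the opposite way, with 16.4 in knockout-labelled and 34.6 in control islets. Ccna2, cyclin A2, had 18.2 in knockout-labelled and 23.2 in control islets. The mitotic kinase gene Cdk1 and its cyclin Ccnb2 were under the floor on both arrays.

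Among the inhibitors, 5 of 6 genes were measured, 4 with a ratio below 1 and 1 above, with a median log2 ratio of -0.099. Cdkn2c, which encodes the INK4 protein p18, was the lowest, with 65.9 in knockout-labelled and 117.6 in control islets, 1.78-fold lower. It had a single probe set, and its log2 ratio of -0.84 lay inside the range of genes of its signal (-0.90 to 0.94). Cdkn1b, which encodes p27, had 123.9 in knockout-labelled and 183.2 in control islets, 1.48-fold lower and just under the smaller limit. Its other probe set was above the floor in control islets only, with 7.3 in knockout-labelled and 37.1 in control islets. Both p27 probe sets were thus lower in the knockout-labelled sample.

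Cdkn1a, the p21 gene and a p53 target, was level in its brightest probe set, with 1129 in knockout-labelled and 1174 in control islets, while its other one was higher (131.2 in knockout-labelled and 99.2 in control islets). The INK4 genes Cdkn2b (p15) and Cdkn2d (p19) had 208.9 and 132.9 in knockout-labelled islets, against 223.7 and 117.5 in control islets. Cdkn2a, whose locus encodes p16 and the p53 activator p19Arf from different first exons, was under the floor on both arrays, at 15.9 in knockout-labelled and 3.7 in control islets. Menin and the polycomb proteins EZH2 and BMI1, which act on the chromatin of the INK4 genes, were measured for all 3 genes. Men1 had 370.0 in knockout-labelled and 282.2 in control islets in its brightest probe set, and another was slightly lower (log2 ratio -0.11). Ezh2 had 36.1 in knockout-labelled and 27.8 in control islets. Bmi1 had 391.5 in knockout-labelled and 413.6 in control islets, with both of its probe sets slightly lower.

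**Figure D2:**
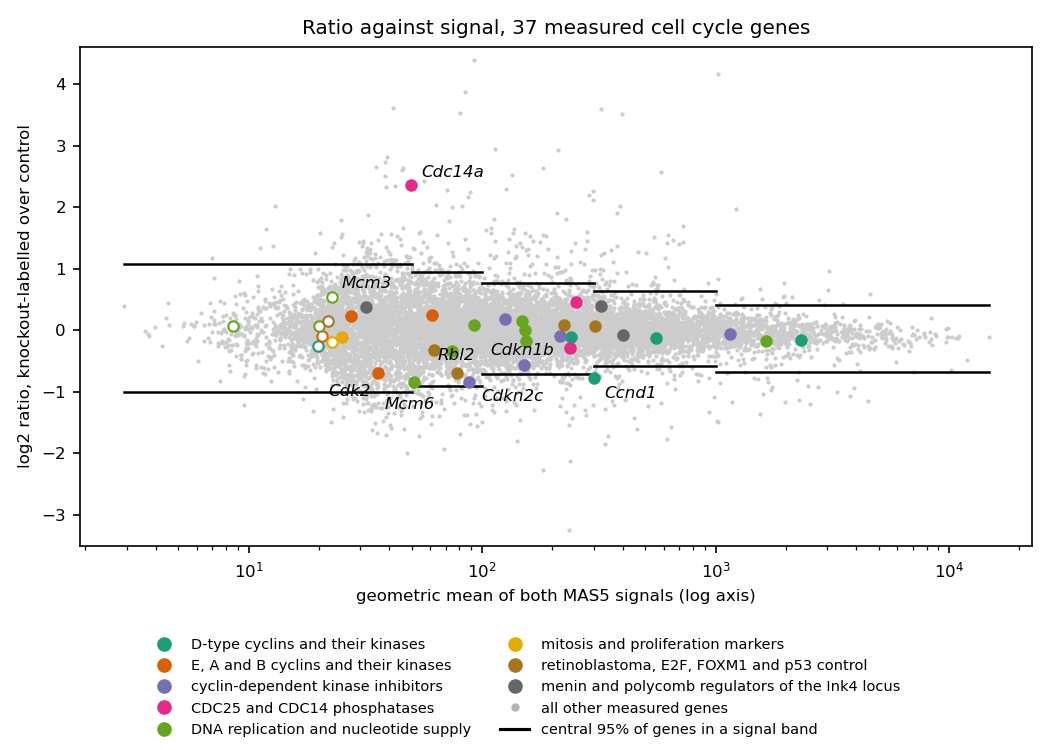
Log2 ratio, knockout-labelled over control (y axis), against the geometric mean of both MAS5 signals (x axis, log scale) for all measured genes (grey) and the 37 measured cell cycle genes (coloured by role, open where only 1 array was above the floor). Black lines bound the central 95% of genes in each signal band. Cdc14a and Ccnd1 are the members outside them. By construction the lines leave out the outermost genes of each band, whichever list these belong to.

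The phosphatases included the largest ratio of all members. CDC14 proteins are phosphatases that in budding yeast undo kinase activity at the exit from mitosis, and the mouse has Cdc14a and Cdc14b. Cdc14a had 112.4 in knockout-labelled and 21.9 in control islets in its brightest probe set, 5.13-fold higher. The control value is next to the floor of 21.6. Its 2 other probe sets were under the floor on both arrays, at 11.3 and 10.4 in knockout-labelled islets, against 13.0 and 9.1 in control islets. The difference in Cdc14a therefore rests on a single probe set. Its log2 ratio was 0.75, below the 2-fold limit, when the 70th percentile served as floor. Cdc14b had 296.7 in knockout-labelled and 215.4 in control islets in its brighter probe set, and 78.2 in knockout-labelled and 101.0 in control islets in the other, so its probe sets disagreed in direction.

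CDC25 phosphatases remove the inhibitory phosphates from the cyclin-dependent kinases. Cdc25a likewise had probe sets in both directions, with 215.3 and 203.2 in knockout-labelled islets, against 262.2 and 157.1 in control islets. Cdc25b and Cdc25c were under the floor on both arrays.

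Genes of DNA replication and nucleotide supply were measured for 10 of 11 members, with 6 ratios above 1 and 4 below and a median log2 ratio of 0.043. Pcna, the sliding clamp of the DNA polymerases, had 1549 in knockout-labelled and 1748 in control islets, 1.13-fold lower. The MCM2 to MCM7 proteins form the ring-shaped helicase that opens the replication fork, and each ring holds all of them. Their genes did not share a direction. Mcm6 was lower, at 38.2 in knockout-labelled and 68.0 in control islets (1.78-fold). Its log2 ratio of -0.83 lay inside the range of genes of its signal (-0.90 to 0.94). Mcm4 was lower by less, at 66.0 in knockout-labelled and 83.2 in control islets. Mcm7 had 156.7 in knockout-labelled and 141.3 in control islets, with 3 of its 4 probe sets higher and 1 lower.

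Among the 16 members with at least 2 probe sets above the floor on both arrays, Mcm2 had the largest SD between them, 0.66. Its brighter probe set had 145.5 in knockout-labelled and 163.8 in control islets, and the other had 70.8 in knockout-labelled and 41.9 in control islets. Mcm3 and Mcm5 were above the floor in knockout-labelled islets only, at 31.5 and 22.8, against 16.3 and 17.7 in control islets. A further Mcm3 probe set had 34.0 in knockout-labelled and 12.7 in control islets. The rest were under the floor on both arrays and lower, at 16.2, 7.8 and 14.0 in knockout-labelled islets, against 17.4, 14.6 and 18.6. The remaining Mcm5 probe sets, also under the floor, had 11.2 and 5.2 in knockout-labelled islets, against 18.8 and 3.6 in control islets. For Mcm6, the second probe set was lower too, at 11.0 in knockout-labelled and 23.0 in control islets, and the third was under the floor on both arrays.

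Both subunits of ribonucleotide reductase, which makes the building blocks of DNA, were measured. Rrm1 had 152.8 in knockout-labelled and 151.9 in control islets, and Rrm2 had 95 in knockout-labelled and 89.1 in control islets. Neither differed by more than the spread among its own probe sets (SD 0.20 and 0.32). The thymidylate genes were dim. Tyms had 22.8 in knockout-labelled and 3.2 in control islets, at least 1.06-fold higher, and Tk1 was under the floor on both arrays. Of 4 probe sets for Tyms, none was above the floor in control islets.

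**Figure D3:**
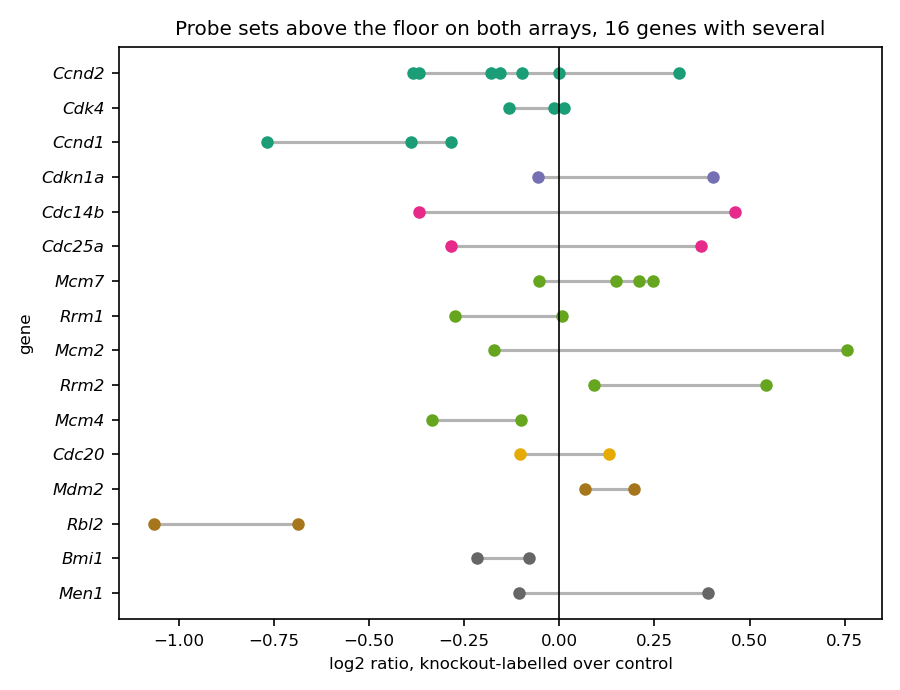
Log2 ratios, knockout-labelled over control (x axis), of every probe set that exceeded the floor on each array, in the 16 members (rows) that have at least 2 of them. Each point is a probe set and grey lines join those of a gene. All probe sets lie on the same side of 0 for 6 of the 16 genes, below it for Ccnd1, Rbl2, Mcm4 and Bmi1 and above it for Rrm2 and Mdm2. The same share over all genes is not given here.

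Mitosis and proliferation markers were the dimmest group. Of 11 genes, 9 were under the floor on both arrays, 81.8% of them against 35.1% of all named genes, and 20 of their 23 probe sets were under it. Mki67, the gene of the Ki-67 antigen used to mark dividing cells, had 10.0 in knockout-labelled and 4.1 in control islets. Aurkb, a kinase of chromosome segregation, had 7.8 in knockout-labelled and 2.8 in control islets. Plk1, the polo-like kinase of mitotic entry, had 4.4 in knockout-labelled and 14.8 in control islets. Ratios of 2-fold are common at such signals, and the directions given next are a description of dim values.

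Of the 6391 genes under the floor on both arrays, 24% had a signal 2-fold higher and 24.5% one 2-fold lower in knockout-labelled islets. Of the 16 members there, 6 were 2-fold higher and 2 were 2-fold lower in the signals as deposited. By the direction of the brightest probe set alone, 12 of the 16 were higher and 4 lower, against 48.8% higher over all genes under the floor. The higher ones included 7 of the 9 mitosis genes (Mki67, Aurka, Aurkb, Birc5, Bub1, Cenpe and Kif11), Cdk1, Ccnb2, Foxm1, Tk1 and Cdkn2a. The lower ones were Bub1b, Plk1, Cdc25b and Cdc25c. The macrophage genes were higher on the same array, and their part in this count was not tested.

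The 2 mitosis genes that reached the floor were Cdc20, the activator of the anaphase-promoting complex, and Top2a, the topoisomerase that untangles sister chromatids. Cdc20 had 24.3 in knockout-labelled and 26.1 in control islets in its brightest probe set and 25.3 in knockout-labelled and 23.1 in control islets in the next. Top2a had 21.0 in knockout-labelled and 24.8 in control islets. Both stayed next to the floor on both arrays.

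Replication and mitosis genes are known to be switched on by different promoter elements. E2F factors bind sites such as TTTCCCGC, TTTGGCGC and TTTCGCGC, and the cell cycle homology region, with the letters TTTGAA or TTTAAA, lies in promoters that are silent in resting cells and active in mitosis. RefSeq promoter windows of GRCm38.p6, from 250 bases before to 50 after a gene start, were found for 46 of the 55 genes and were searched on both strands, TTTAAA being its own reverse complement. An E2F word was in a window of 10 of the 46 genes (21.7%), against 2.12% of all 27025 genes in the table. By role, an E2F word was found for 4 of 10 replication genes and for 0 of 10 mitosis genes. A homology region word was in a window of 23 of the 46 genes (50%), against 30.6% of all genes, in 9 of the 10 mitosis genes and in 4 of the 10 replication genes, the same number of replication genes as for the E2F words. Examples are given by Mcm6, Cdk2 and Rbl1, which hold E2F words and were measured, by Cdk1, which holds both kinds, and by Cdc20. Cdc14a is shown as the member with the largest ratio. Each line gives the 150 bases before the gene start, 5′ to 3′ on the gene's strand, and capitals mark the words found.
Mcm6, chr1:128359706-128359855, minus strand: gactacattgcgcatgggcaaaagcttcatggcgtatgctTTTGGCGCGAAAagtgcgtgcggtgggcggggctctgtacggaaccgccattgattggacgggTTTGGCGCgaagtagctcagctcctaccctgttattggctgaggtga
Cdk2, chr10:128705052-128705201, minus strand: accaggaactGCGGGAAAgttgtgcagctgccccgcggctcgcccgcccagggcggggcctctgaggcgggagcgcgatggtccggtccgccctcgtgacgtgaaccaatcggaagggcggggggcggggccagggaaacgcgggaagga
Rbl1, chr2:157204535-157204684, minus strand: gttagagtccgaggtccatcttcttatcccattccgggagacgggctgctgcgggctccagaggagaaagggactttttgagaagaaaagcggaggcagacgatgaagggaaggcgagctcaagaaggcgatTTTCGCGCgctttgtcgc
Cdk1, chr10:69352913-69353062, minus strand: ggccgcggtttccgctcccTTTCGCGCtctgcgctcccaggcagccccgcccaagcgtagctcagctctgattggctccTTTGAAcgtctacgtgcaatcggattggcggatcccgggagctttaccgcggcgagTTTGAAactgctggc
Cdc20, chr4:118437344-118437493, minus strand: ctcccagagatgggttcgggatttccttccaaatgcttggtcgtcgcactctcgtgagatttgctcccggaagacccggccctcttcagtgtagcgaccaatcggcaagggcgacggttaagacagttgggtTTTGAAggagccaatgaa
Cdc14a, chr3:116428742-116428891, minus strand: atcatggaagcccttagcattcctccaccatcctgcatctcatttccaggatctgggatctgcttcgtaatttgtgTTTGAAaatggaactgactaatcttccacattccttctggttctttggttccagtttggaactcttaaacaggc

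In Mcm6 the first capitals hold TTTGGCGC and, overlapping it on the other strand, TTTCGCGC, and a further TTTGGCGC follows. The Cdk2 word reads TTTCCCGC on the other strand. These are matches of letters, not sites shown to be bound, and a promoter without them may be bound elsewhere. Members that share a word did not share a direction. Of the 10 genes with an E2F word, Mcm6, Cdk2, Rbl1 and Cdc25a had ratios below 1 in their brightest probe sets, Mcm3, Mcm5, Mcm7 and Ezh2 had ratios above 1, and Cdk1 and Cdkn2a were under the floor on both arrays.

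The regulators above these genes were measured for 5 of the 6 genes with a probe set. Rbl2, the gene of the pocket protein p130, which holds E2F targets off in resting cells, was the lowest, with 61.4 in knockout-labelled and 98.8 in control islets, 1.61-fold lower. Its other probe set was lower as well, at 30.4 in knockout-labelled and 63.6 in control islets. The 2 log2 ratios, -0.69 and -1.06, had an SD of 0.27, so the difference was larger than the spread between its probe sets. The log2 ratio of the brightest Rbl2 probe set still lay inside the range of genes of its signal (-0.90 to 0.94). That of the dimmer Rbl2 probe set, -1.06, lay just below the range of genes with signals under 50 (-0.99 to 1.07). Rbl1, the gene of the related p107, had 55.7 in knockout-labelled and 69.6 in control islets. Rb1, the retinoblastoma gene, was level, with 232.0 in knockout-labelled and 217.9 in control islets. Mdm2, whose protein marks p53 for breakdown, had 312.0 in knockout-labelled and 297.6 in control islets. E2f1 was above the floor in knockout-labelled islets only, at 23.9, against 20.1 in control islets. Foxm1, the driver of mitosis genes, was under the floor on both arrays, at 14.0 in knockout-labelled and 9.1 in control islets in its brightest probe set, and 2 of its 4 probe sets were higher and 2 lower.

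**Figure D4:**
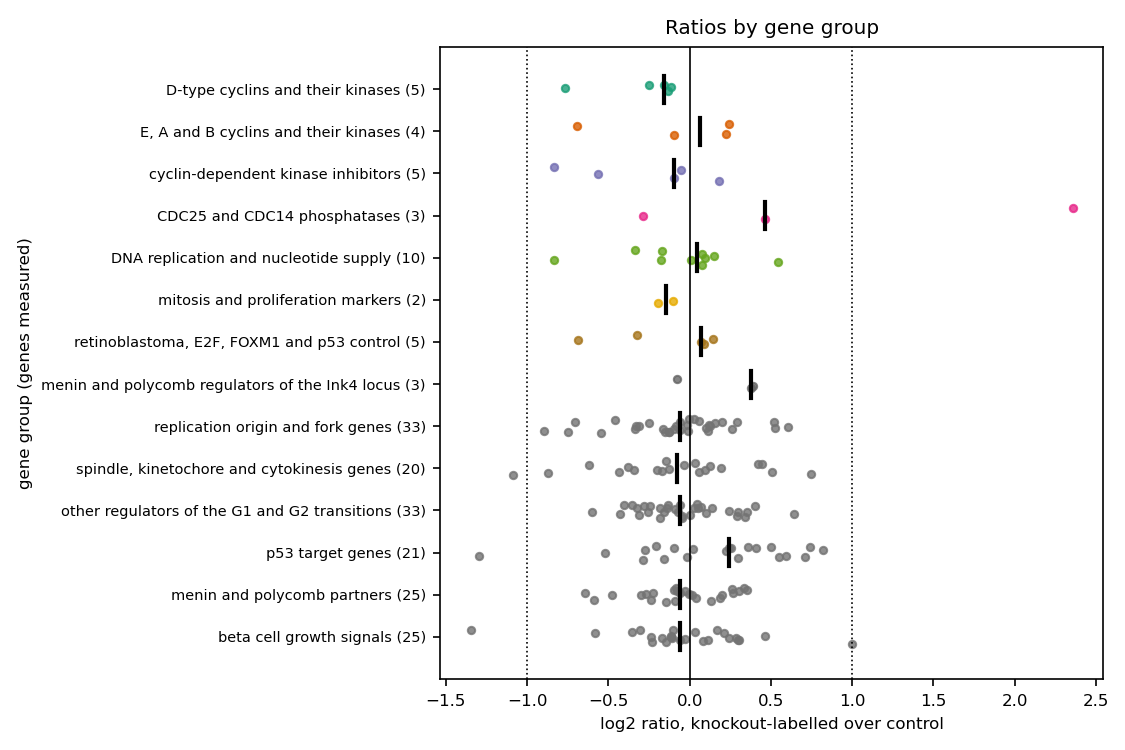
Log2 ratios, knockout-labelled over control (x axis), of the measured genes in each group (rows, with the number of genes), brightest probe set per gene, bounds included. Points are genes, black bars are group medians and dotted lines mark 2-fold. The D-type cyclins and their kinases all lie below 0, and of all measured genes 49.9% lie above it. The median of the p53 targets is 0.24, and the medians of the other 5 pathway groups lie between -0.079 and -0.058.

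Further genes of the same pathways were compared in the same way. Over 156 measured genes outside the members, 69 had a ratio above 1 and 87 below, and the median log2 ratio was -0.047. At 2-fold, 1 was higher (0.641%) and 3 were lower (1.92%), where 1.82% and 1.44% of all measured genes were. At 1.5-fold, 5.13% were higher and 7.05% lower, against 6.91% and 6.21% of all measured genes. The larger share of lower genes among the members at 1.5-fold, 13.5%, was thus not seen in these lists together. Of 57 spindle, kinetochore and cytokinesis genes, 37 were under the floor on both arrays (64.9%), whereas of 39 genes of replication origins and forks 6 were (15.4%).

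Replication genes had a median log2 ratio of -0.059 over 33 measured genes. Chaf1b, a chromatin assembly factor subunit, was the lowest, at 28.8 in knockout-labelled and 53.6 in control islets. It was followed by Dnmt1, the maintenance DNA methyltransferase (89.6 in knockout-labelled and 150.8 in control islets), with all 3 of its probe sets lower. The licensing factor gene Cdt1 (log2 ratio 0.60) and the DNA ligase gene Lig1 (0.53) had the highest ratios.

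Among 20 measured spindle and kinetochore genes, Spc25, a subunit of the NDC80 complex, was 2.12-fold lower in its brightest probe set, with 675.7 in knockout-labelled and 1433 in control islets. Its other probe set went the opposite way (log2 ratio 0.26). Ndc80, Nuf2 and Spc24, genes of the same complex, were under the floor on both arrays. Kif22, a chromosome kinesin, had a log2 ratio of -0.87. The securin gene Pttg1 had 565.7 in knockout-labelled and 337.3 in control islets, with another probe set higher too, and the checkpoint gene Mad2l1 had a log2 ratio of 0.44.

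The other regulators of the G1 and G2 transitions numbered 33 with a median log2 ratio of -0.058, and no gene reached 2-fold. The checkpoint kinase genes Atr (-0.60) and Wee1 (-0.43) were the lowest above the floor on both arrays. E2f5 (0.64) and Myc (0.40) were the highest, and Wee1 and E2f5 each had a probe set in the opposite direction. Menin and polycomb partners numbered 25 with a median log2 ratio of -0.062, again with no gene at 2-fold, and with the polycomb genes Ring1 (-0.64) and Phc3 (-0.59) lowest and Pcgf2 (0.35) and Ezh1 (0.33) highest.

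Targets of p53 had a median log2 ratio of 0.24 over 21 measured genes, 13 above 1 in ratio (61.9%) and 8 below. Of all measured genes, 49.9% were above 1. The median was between 0.22 and 0.24 with every scaling, floor and probe set rule tried. These settings all use the same arrays and stand in for no replicate. Perp, a desmosome protein gene, had 203.5 in knockout-labelled and 121.9 in control islets, and the DNA repair gene Ddb2 had 41.6 in knockout-labelled and 25.4 in control islets. Bbc3, the gene of the cell death protein PUMA, had 38.2 in knockout-labelled and 18.3 in control islets, at least 1.77-fold higher. Pmaip1, the gene of the cell death protein NOXA, went the other way, with 19.8 in knockout-labelled and 53.2 in control islets, at least 2.45-fold lower. Among targets above the floor on both arrays, Trp53inp1 had the lowest log2 ratio, at -0.28, with its other probe set at 0.22, and the kinase gene Plk3 the next, at -0.21. The p53 targets among the members, Cdkn1a and Mdm2, had log2 ratios of -0.056 and 0.068.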

How the data were processed

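RNA of knockout-labelled and of control islets was hybridised on 1 array each. Per the labels, 6 µg of total RNA per sample gave the biotin-labelled cRNA, and per the submitters' processing notes the authors used MAS5 to turn probes into the deposited signals, which are linear intensities for 45037 probe sets. The version and scaling target are not given in the sources used here. Signals were used as deposited. Both arrays had a 2% trimmed mean of 99.3. The precision is limited by the number of arrays, 1 per group, and nothing says how many mice each stands for.

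Probe sets were named through the platform annotation, which can be old. It gave 34945 probe sets 1 gene and 932 several. All 53 members with a probe set matched RefSeq of GRCm38.p6 by gene identifier under the same symbol. For log2 ratios, an array's 50th percentile replaced any signal under it, and genes under it on both arrays were left out, leaving 11802. The brightest probe set has the highest log2 signal averaged over both arrays. Calculations used Python 3.11.15, numpy 2.4.6 and statsmodels 0.14.6. They were tested on simulated data with log2 changes of 2 or 3, in either direction, planted in genes well above the floor. That test does not cover dim genes or smaller ratios, and so not those near the 2-fold limit. The alternatives tried were 3 other scalings, 2 other floors, a pseudocount of 16 without a floor, and an average across a gene's probe sets.

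The members and gene lists were chosen with earlier results of these data known. All members are named. Of the further pathway genes, the text names those at 2-fold and, per list, the 2 largest ratios in each direction above the floor on both arrays. Names outside this rule (Bbc3, Ndc80, Nuf2 and Spc24) were chosen after their values were seen.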

Additional observations from a re-analysis of the deposited data

How the results depend on the processing

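No paired analysis was possible because each group has 1 array, and for the same reason no replicate could be left out. Dividing by the array median, quantile normalization and loess moved no member's log2 ratio by 0.21 or more, the median SD between probe sets of a gene. The number of members at least 2-fold higher was 3 with the floor at the 30th percentile (Cdc14a, Cdk1 and Tyms), 0 with it at the 70th and 2 with a pseudocount of 16 in place of a floor, against 1 as reported. At 1.5-fold, the number of higher members was 8 with the floor at the 30th percentile, 4 without a floor and 2 with probe sets averaged, against 1 as reported. Lower members numbered 9 at the 30th and 2 at the 70th percentile as floor, against 5 as reported. With the lower floor more dim genes are counted. None was 2-fold lower under any of these. The median log2 ratio of the CDC25 and CDC14 phosphatases, 0.46 as reported over 3 genes, was -0.28 with the floor at the 30th percentile, -0.27 without a floor and 0.046 with probe sets averaged. That of the E, A and B cyclins and their kinases, 0.064 as reported, was -0.16 with probe sets averaged, and that of the menin and polycomb genes, 0.38 as reported, was 0.14. With the lower floor and without a floor, 5 phosphatase genes were counted instead of 3, Cdc25b and Cdc25c being added with ratios below 1. Averaging gave log2 ratios of 0.046 for Cdc14b and 0.043 for Cdc25a, against 0.46 and -0.28 as reported. It gave -0.22 for Ccne1 and 0.14 for Men1, against 0.22 and 0.39 as reported. The median of all members was between -0.10 and -0.044 under the other settings but 0.060 without a floor. No median is compared for groups with fewer than 3 measured genes, which were the mitosis group as reported and, at a 70th percentile floor, also the E, A and B cyclin group and the menin and polycomb group. Signal over background limits most of the mitosis genes, which lie under the floor.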

Other observations

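Genes of growth signals that are known to act on beta cell number were compared in the same way. Of 25 measured genes, 11 had a ratio above 1 and 14 below, and the median log2 ratio was -0.061. Akt1, a kinase gene of the insulin and growth factor pathway, was at the 2-fold limit, with 454.0 in knockout-labelled and 226.8 in control islets, and its 3 probe sets above the floor had log2 ratios of 0.21 and above. Irs2, an adaptor of the insulin receptor that beta cell growth depends on in mice, had 201.1 in knockout-labelled and 145.7 in control islets. Igf2, an insulin-like growth factor gene, had 26.2 in knockout-labelled and 66.7 in control islets, 2.55-fold lower, with the first value next to the floor. Smad3, a mediator of TGF-beta signals, had 41.6 in knockout-labelled and 62.2 in control islets.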
